A study of Arabidopsis thaliana with 12 samples.

Results

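The 39 genes described here are nuclear genes of Arabidopsis thaliana whose proteins make up the light-harvesting antenna and the photosystems of the chloroplast. They were chosen by locus identifier from the 33602 genes of each table, and all 39 were found. The list has 3 blocks: 17 antenna genes (LHCA and LHCB), 12 genes for photosystem I subunits (PSA) and 10 genes for photosystem II proteins (PSB). RNA came from whole seedlings of either ahl10-1, a mutant line named for the AT-hook DNA-binding protein AHL10, or the Col-0 wild type (WT). Seedlings grew on agar without added sugar under continuous light. At day 7 stressed seedlings were moved to agar infused with polyethylene glycol, which holds water back from the roots and set a water potential of -0.7 MPa, while control seedlings went to fresh control agar at -0.25 MPa. Tissue was taken 96 h after transfer, on day 11. The 4 groups (ahl10-1 stress, ahl10-1 control, WT stress and WT control) have 3 libraries each, from separate experiments per the design text, made from oligo-dT selected RNA. The mutant is a single line, with no second allele or complemented line among these libraries.

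Light-harvesting proteins bind chlorophyll and carotenoids in the thylakoid membrane and pass excitation energy to a reaction centre. LHCA proteins surround photosystem I, while LHCB1, LHCB2 and LHCB3 form the trimers of the major antenna of photosystem II and LHCB4, LHCB5 and LHCB6 are its minor, monomeric antennas that connect the trimers to the core. The reaction centre proteins themselves are made from chloroplast genes, so the nuclear PSA and PSB genes supply the peripheral subunits, such as the docking surfaces for ferredoxin and plastocyanin in photosystem I and the proteins that shield the oxygen-evolving cluster of photosystem II. Transcripts of these genes are among the most abundant in green tissue, and are known to respond to light, sugar and signals from the chloroplast.

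Levels are given as TMM-scaled RPKM: reads per kilobase of the deposited gene length, scaled to the size of the library. Library sizes were adjusted by edgeR's trimmed mean of M-values. For members such as LHCA1 (1.2 kb) the deposited length is shorter than the annotated gene body. The libraries held 57996104 to 68555138 reads in genes, and the 39 genes took 7.13% (WT stress replicate 3) to 10.2% (ahl10-1 control replicate 3) of them. No member had fewer than 1295 reads in any library, and all 39 passed the filter on low counts. AHL10 itself had 17, 14.4 and 14.9 in ahl10-1 stress and 13.2, 11.5 and 10.96 in ahl10-1 control, against 32.5, 32.5 and 33.7 in WT stress and 23.9, 24.1 and 23.7 in WT control. Its transcript was thus still present in the mutant, at a log2 difference of -1.09 ± 0.08 under stress and -1.01 ± 0.08 in control (SE; edgeR adjusted p = 1.28e-04 and 2.29e-04).

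The largest fold change of a member under stress was in the family of 5 LHCB1 copies, which encode nearly the same protein. In coding sequence, LHCB1.1, LHCB1.2 and LHCB1.3 were identical at 95.7% to 96.4% of aligned bases, while LHCB1.4 and LHCB1.5 matched each other at 92.5% and LHCB1.4 matched LHCB1.1 at 87.02%. The first 3 lie side by side on chromosome 1, and LHCB1.4 and LHCB1.5 are neighbours on chromosome 2 that point away from each other, with 1039 bases between their start sites. Because the copies differ outside the protein they encode, the 250 bases before the annotated start of each are shown here (RefSeq, TAIR10.1, written 5′ to 3′ on the gene's own strand). The tables were joined to that annotation by locus identifier. Capitals mark the letters of 3 motifs known from light-regulated plant promoters, searched on both strands: the G-box (CACGTG), the I-box (GATAAG) and the CCAATC element.

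LHCB1.1 (chr1:10475970-10476219, minus strand): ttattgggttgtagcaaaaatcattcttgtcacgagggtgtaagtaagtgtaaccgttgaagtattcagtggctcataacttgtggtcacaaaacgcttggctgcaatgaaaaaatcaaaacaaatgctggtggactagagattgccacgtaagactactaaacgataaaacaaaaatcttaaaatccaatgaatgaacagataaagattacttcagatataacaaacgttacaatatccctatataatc
LHCB1.2 (chr1:10473503-10473752, minus strand): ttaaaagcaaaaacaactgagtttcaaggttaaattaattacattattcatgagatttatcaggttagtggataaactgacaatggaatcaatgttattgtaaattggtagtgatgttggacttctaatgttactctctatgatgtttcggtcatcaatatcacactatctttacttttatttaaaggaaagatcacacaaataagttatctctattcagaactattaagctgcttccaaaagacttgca
LHCB1.3 (chr1:10477635-10477884, plus strand): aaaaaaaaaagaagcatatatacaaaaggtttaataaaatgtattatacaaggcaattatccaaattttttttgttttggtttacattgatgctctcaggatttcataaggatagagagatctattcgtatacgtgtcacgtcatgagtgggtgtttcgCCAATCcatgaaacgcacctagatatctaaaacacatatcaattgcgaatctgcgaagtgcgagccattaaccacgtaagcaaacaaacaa
LHCB1.4 (chr2:14524357-14524606, plus strand): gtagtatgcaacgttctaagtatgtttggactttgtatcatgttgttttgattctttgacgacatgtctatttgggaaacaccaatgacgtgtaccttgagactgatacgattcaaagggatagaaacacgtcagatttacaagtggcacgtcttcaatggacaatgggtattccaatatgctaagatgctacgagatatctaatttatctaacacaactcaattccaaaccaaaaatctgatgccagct
LHCB1.5 (chr2:14523569-14523818, minus strand): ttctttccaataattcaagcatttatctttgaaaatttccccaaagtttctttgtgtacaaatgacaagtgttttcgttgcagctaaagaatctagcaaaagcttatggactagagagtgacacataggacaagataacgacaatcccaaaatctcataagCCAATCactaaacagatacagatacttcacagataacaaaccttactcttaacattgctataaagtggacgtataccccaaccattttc

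The windows of LHCB1.3 and LHCB1.5 each held 1 CCAATC element, at 91 and 89 bases before the start. Those of LHCB1.1, LHCB1.2 and LHCB1.4 held none of the 3 motifs. The LHCB2 pair is shown next because its copies, identical at 92.9% of aligned coding bases, shifted against each other under stress.

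LHCB2.1 (chr2:1824481-1824730, minus strand): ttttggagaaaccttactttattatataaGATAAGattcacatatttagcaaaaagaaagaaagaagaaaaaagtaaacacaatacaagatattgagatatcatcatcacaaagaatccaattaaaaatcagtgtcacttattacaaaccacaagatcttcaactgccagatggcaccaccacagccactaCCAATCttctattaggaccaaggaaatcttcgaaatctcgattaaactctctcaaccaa
LHCB2.2 (chr2:1800473-1800722, minus strand): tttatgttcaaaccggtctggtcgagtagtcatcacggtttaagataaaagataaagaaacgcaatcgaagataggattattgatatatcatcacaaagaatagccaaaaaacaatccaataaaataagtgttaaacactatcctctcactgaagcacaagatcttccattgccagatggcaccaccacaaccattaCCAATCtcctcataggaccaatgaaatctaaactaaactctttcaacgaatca

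Both LHCB2 windows held a CCAATC element, at 59 bases before the start in LHCB2.1 and 53 in LHCB2.2, and LHCB2.1 also held an I-box at 221 bases. Over the blocks, the CCAATC element was found in 9 of 17 antenna windows (52.9%), in 0 of 12 photosystem I windows and in 1 of 10 photosystem II windows, that of PSBQ2, against 10.2% of the windows of 27443 protein-coding genes. The I-box was in 4 of 17 antenna, 4 of 12 photosystem I and 1 of 10 photosystem II windows (12.3% of all genes), and the G-box in 3, 2 and 2 (6.49% of all genes). A match of letters is not evidence of a working site. Of the 5 antenna genes that fell under stress in WT, LHCA1, LHCB1.5 and LHCB2.1 had the CCAATC element, and LHCB1.1 and LHCB1.4 did not.

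Summed over its 17 genes, the antenna block had 41566, 41459.7 and 50449 TMM-scaled RPKM in the 3 ahl10-1 stress libraries and 46200.0, 45318 and 64856 in ahl10-1 control. In WT stress it had 38248, 40838 and 38486, against 58033, 47279.5 and 47322 in WT control. The WT groups did not overlap, and the 3 WT stress libraries were also below every other library of the series. In ahl10-1 the groups overlapped, since stress replicate 3 exceeded control replicates 1 and 2. The antenna means were 44492 ± 5159 in ahl10-1 stress and 52125 ± 11034 in ahl10-1 control, against 39191 ± 1432 in WT stress and 50878 ± 6196 in WT control (SD, n = 3 each).

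The 12 photosystem I genes summed to 14007, 15186 and 19957 in ahl10-1 stress and 14848, 18662 and 24321 in ahl10-1 control. In WT stress the sums were 13615, 14517 and 13985, against 18098, 17148 and 14697 in WT control. The WT groups were apart by a narrow margin, WT stress replicate 2 lying just under WT control replicate 3. The 10 photosystem II genes summed to 14407, 15510.3 and 19846 in ahl10-1 stress and 14434, 18542 and 22843 in ahl10-1 control. In WT stress these sums were 13821, 14677 and 14329.8, against 17409.6, 16914 and 14486 in WT control. Here the WT groups overlapped, because WT stress replicate 2 was above WT control replicate 3.

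Set against the control of the same genotype, the mean antenna sum under stress was 85.4% in ahl10-1 and 77.03% in WT. For photosystem I it was 84.99% in ahl10-1 and 84.3% in WT, and for photosystem II 89.2% and 87.7%. In these whole-seedling samples, fewer green cells and less RNA per green cell cannot be told apart.

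**Figure D1:**
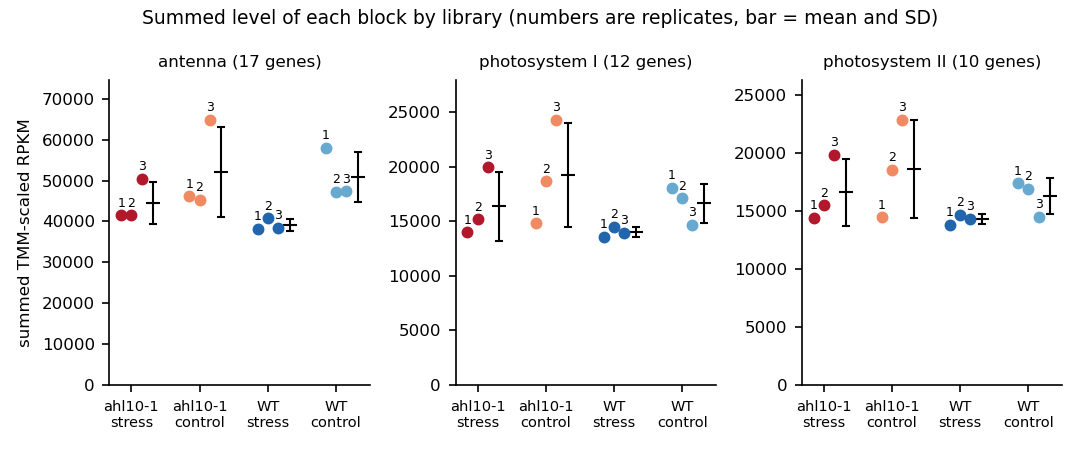
Summed TMM-scaled RPKM (vertical axis) of the antenna, photosystem I and photosystem II blocks in each of the 12 libraries, by group (horizontal axis). Small numbers give the replicate and the black bar the mean ± SD (n = 3). The WT stress libraries lie low and close together, and replicate 3 is the highest of both ahl10-1 groups in all 3 blocks.

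Much of the spread was shared by the members within a library. Replicate 3 had the highest level of its group for 38 of 39 members in ahl10-1 stress and for 37 of 39 in ahl10-1 control. In WT stress, replicate 2 was highest for 34 members, and in WT control, replicate 1 was highest for 33 and replicate 3 lowest for 30. The median coefficient of variation over the members was 16.5% in ahl10-1 stress and 24.1% in ahl10-1 control, against 8.51% and 10.3% over all 22604 tested genes. In WT stress it was 4.19%, below the 7.06% of all tested genes, and in WT control 10.9%, against 8.88%. Members of 1 library are therefore not independent readings of a condition.

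**Figure D2:**
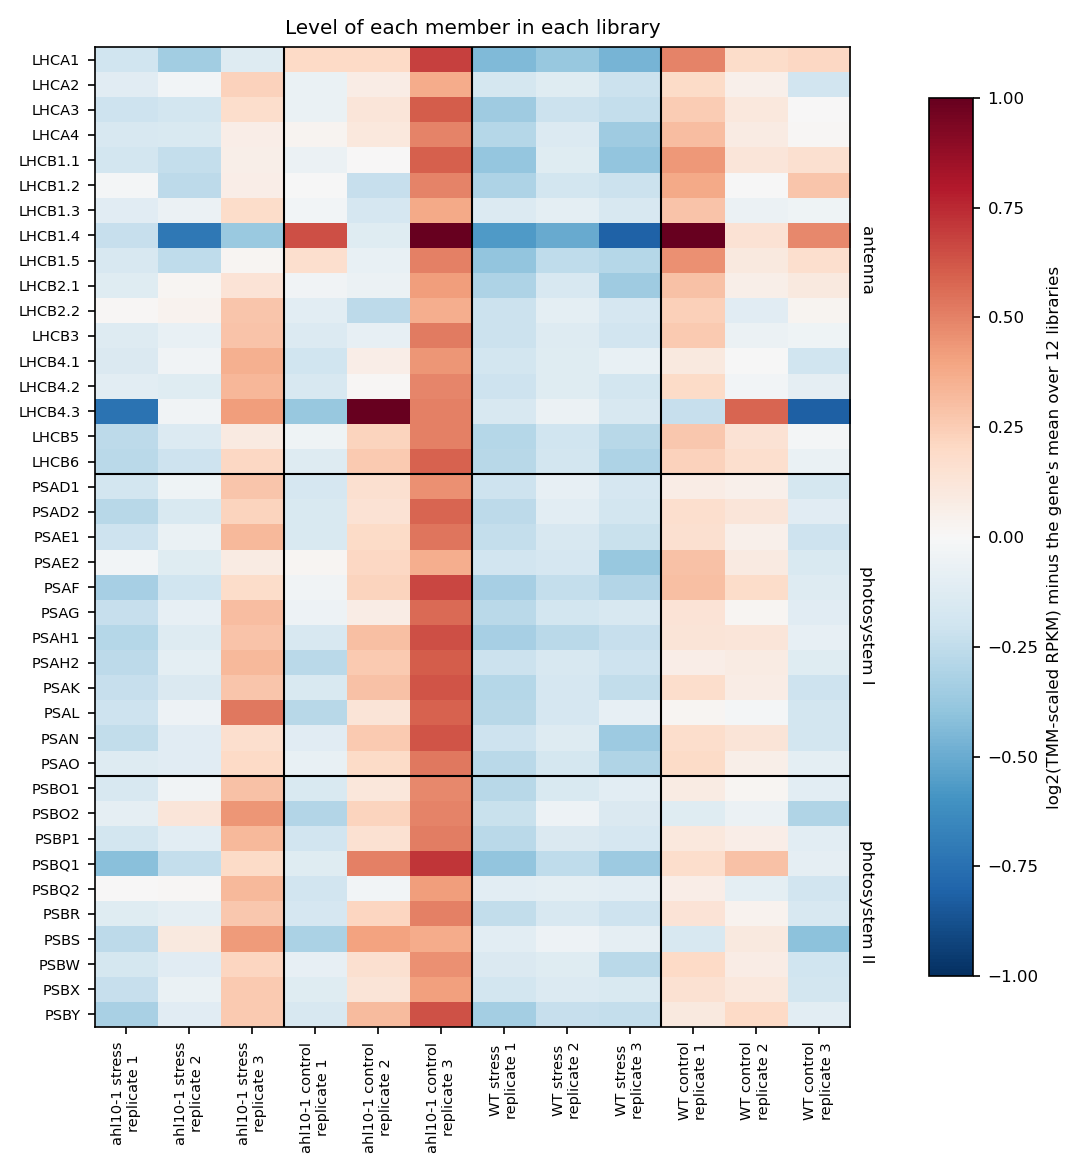
Heat map of the 39 members (rows, in 3 blocks) in 12 libraries (columns), as log2(TMM-scaled RPKM) minus the gene's mean over the 12 libraries. Colours end at 1 and -1. Replicate 3 of each ahl10-1 group is raised in nearly every row, the WT stress columns are low in nearly every row, and LHCB1.4 and LHCA1 show the clearest contrast between stress and control columns in both genotypes.

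Some tissue markers moved with treatment as well. Of 20 root markers, ASFT, EXPA7, EXPA18, MYB36 and WOX5 rose under stress in both genotypes (edgeR adjusted p under 0.05), while SCR fell in ahl10-1 and CASP4 fell in WT. The 5 that rose were 25% of the list, against 14.2% of all tested genes in ahl10-1 and 11.7% in WT. In either direction 30% of the list changed in each genotype, against 27.8% of all tested genes in ahl10-1 and 24.2% in WT. The summed level of the 20 was 198 to 235 TMM-scaled RPKM in ahl10-1 stress and 148 to 192 in ahl10-1 control, against 194 to 216 in WT stress and 135 to 209 in WT control. EXPA7, an expansin of root hair cells, had a log2 fold change of 1.82 ± 0.41 in ahl10-1 and 1.52 ± 0.40 in WT (SE). The summed level of 15 leaf markers was 163 to 216 in ahl10-1 stress and 189.7 to 206 in ahl10-1 control, against 182 to 191 in WT stress and 171 to 204 in WT control. Among them EPF1 rose and YAB3 and KAN1 fell under stress in ahl10-1, and AS1 rose and YAB5 fell in WT. These were 20% of the leaf markers in ahl10-1 and 13.3% in WT, below the shares of all tested genes that changed (27.8% and 24.2%). No marker of either list was at 0 reads. Within groups, the order of the root marker sums did not run 1 way with the members. The libraries in which most members were the lowest of their group had the highest root marker sum of that group in ahl10-1 stress (replicate 1, 235, lowest for 32 members), WT stress (replicate 1, 216, 26 members) and WT control (replicate 3, 209, 30 members). In ahl10-1 control that library (replicate 1, 148, 33 members) had the lowest sum. The leaf marker sum was highest in replicate 3 of ahl10-1 stress (216) and of ahl10-1 control (206), where 38 and 37 members were highest. In WT control it was lowest in replicate 3 (171), where 30 members were lowest. It went the other way in WT stress, being lowest in replicate 2 (182), where 34 members were highest. The part of tissue makeup in the results below was not tested.

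In WT, low water potential lowered 5 of the 39 members, all of them antenna genes: LHCA1, LHCB1.4, LHCB1.5, LHCB1.1 and LHCB2.1 (edgeR's quasi-likelihood test, adjusted p under 0.05). That is 12.8% of the members, against 24.2% of all 22604 tested genes that changed and 12.5% that fell. The share for the whole list was thus near the background of genes that fell. By block the calls were 5 of 17 antenna genes (29.4%), 0 of 12 photosystem I genes and 0 of 10 photosystem II genes. At an unadjusted p under 0.05 there were 9, 2 and 1, DESeq2's Wald test called 8, 1 and 0, and limma on log2(RPKM + 1) called 5, 0 and 0. No member rose, where 11.7% of all tested genes did. Of all tested genes 36.7% had an unadjusted p under 0.05, and 14.8% fell by DESeq2's test.

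Most fold changes that did not pass the test had the same sign. With the 5 called genes included, they were negative for 37 of 39 members (17 of 17, 12 of 12 and 8 of 10 by block), against 50.2% of all tested genes, with PSBO2 (0.02 ± 0.18) and PSBS (0.06 ± 0.21) the exceptions (log2, SE). The median log2 fold change was -0.39 for the antenna, -0.25 for photosystem I and -0.20 for photosystem II, beside -0.00158 for all tested genes. All 3 WT stress libraries were below all 3 WT control libraries for 23 members (13, 6 and 4 by block), or 59.0%, against 21.6% of all tested genes. Since levels of the members vary together between libraries, these counts describe the list and carry no test.

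Among the genes of the photosystem I antenna, LHCA1 (AT3G54890, chr3:20339504-20341176, minus strand), whose protein pairs with LHCA4 in the antenna belt of the complex, had the smallest adjusted p of all members. Its level was 1580.5, 1648 and 1548 in WT stress, against 3019, 2432 and 2466 in WT control. The groups were far apart, and the stress level was 60.3% of control (log2 fold change -0.73 ± 0.15, SE; edgeR adjusted p = 0.00401). LHCA2, LHCA3 and LHCA4, the other members of that belt, had log2 fold changes of -0.20 ± 0.14, -0.39 ± 0.17 and -0.39 ± 0.15, none past the threshold (edgeR adjusted p = 0.359, 0.114 and 0.0723).

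Of the major photosystem II antenna, LHCB1.4 (AT2G34430, chr2:14524607-14525918, plus strand) fell furthest. It had 878, 917 and 743 in WT stress, against 2654, 1430.3 and 1812 in WT control, so that even the lowest control was well above the highest stress library. The stress level was 43.03% of control (log2 fold change -1.22 ± 0.28, SE; edgeR adjusted p = 0.00863). Its neighbour LHCB1.5 (AT2G34420) had 4064, 4461 and 4372 in WT stress, against 7309.6, 5706 and 5971 in WT control. The groups were apart, at a smaller log2 fold change of -0.56 ± 0.16 (edgeR adjusted p = 0.0265). LHCB1.1 (AT1G29920) had 1657, 1990.3 and 1645 in WT stress, against 2917, 2354 and 2415 in WT control, again without overlap (-0.54 ± 0.18; edgeR adjusted p = 0.0462).

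The remaining LHCB1 copies did not pass. LHCB1.3 (AT1G29930), the most abundant of all 39 members, had 9741, 9974 and 9582 in WT stress, against 13061, 10270.0 and 10377 in WT control, a narrow gap between the groups (-0.20 ± 0.17; edgeR adjusted p = 0.425). LHCB1.2 (AT1G29910) had 2631, 2866 and 2800.2 in WT stress, against 4227, 3251 and 3949 in WT control, and a log2 fold change of -0.46 ± 0.18 (edgeR adjusted p = 0.0808). LHCB2 is the form of the major antenna whose phosphorylation drives state transitions, in which trimers move to photosystem I. LHCB2.1 (AT2G05100) had 1146, 1274 and 1109 in WT stress, against 1738, 1482 and 1516 in WT control, and fell (-0.42 ± 0.14; edgeR adjusted p = 0.0439). LHCB2.2 (AT2G05070) had 1068, 1160.5 and 1102 in WT stress, against 1459, 1144 and 1265 in WT control, an overlap of the groups by 1 library (-0.22 ± 0.16; edgeR adjusted p = 0.346).

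LHCB3, the third protein of the trimers, and the minor antenna genes had log2 fold changes from -0.39 (LHCB5) to -0.09 (LHCB4.3), none past the threshold. LHCB4.3, a rarer form of the minor antenna LHCB4, had the lowest level of all members: 23.4, 25.03 and 23.4 in WT stress, against 22.3, 39.04 and 14.8 in WT control. Its control libraries were spread over a wider range than its stress libraries.

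**Figure D3:**
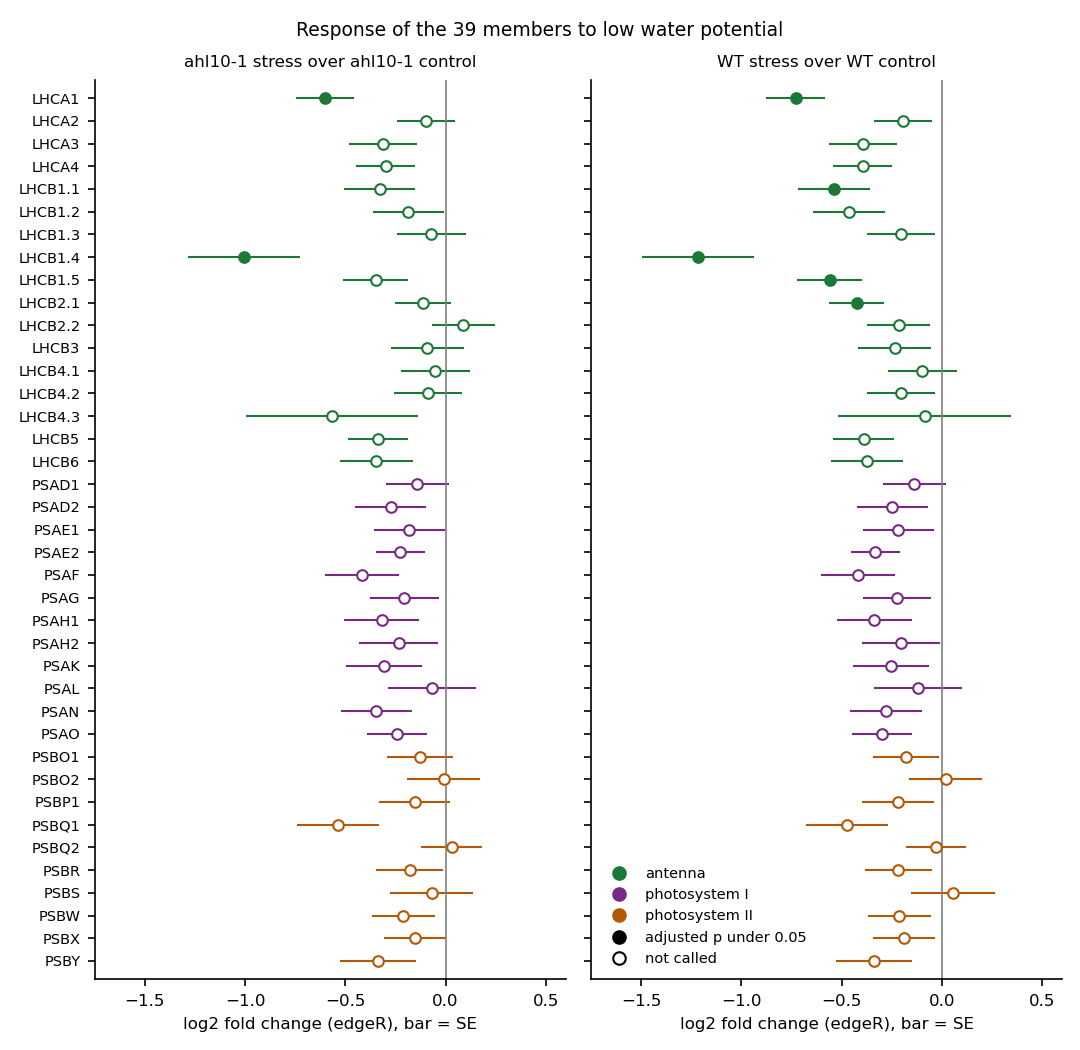
Log2 fold change (edgeR, horizontal axis) of each member under stress in ahl10-1 (left) and in WT (right), with its SE as a bar. Filled points have an adjusted p under 0.05: LHCA1 and LHCB1.4 in ahl10-1, and LHCA1, LHCB1.1, LHCB1.4, LHCB1.5 and LHCB2.1 in WT. Nearly all open points also lie left of 0.

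The makeup of the LHCB1 transcript pool differed between treatments. It was looked at after the single genes and is given as a description. LHCB1.4 held 5.296%, 3.95% and 4.14% of the summed LHCB1 level in the ahl10-1 stress libraries and 8.52%, 5.76% and 8.12% in ahl10-1 control. In WT stress it held 4.63%, 4.54% and 3.88%, against 8.798%, 6.22% and 7.39% in WT control. All 6 stress libraries were below all 6 control libraries. LHCB1.3 held 49.6% ± 1.96 in ahl10-1 stress and 44.5% ± 1.195 in ahl10-1 control, against 50.3% ± 1.01 in WT stress and 43.4% ± 1.16 in WT control (mean ± SD in percentage points, n = 3), and here all stress libraries were above all control libraries. LHCB1.5 held 22.5% ± 0.309 in ahl10-1 stress and 24.4% ± 0.731 in ahl10-1 control, against 22.1% ± 0.710 in WT stress and 24.5% ± 0.299 in WT control. In each library at most 0.245% of any LHCB1 copy's reads were multi-mapped.

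**Figure D4:**
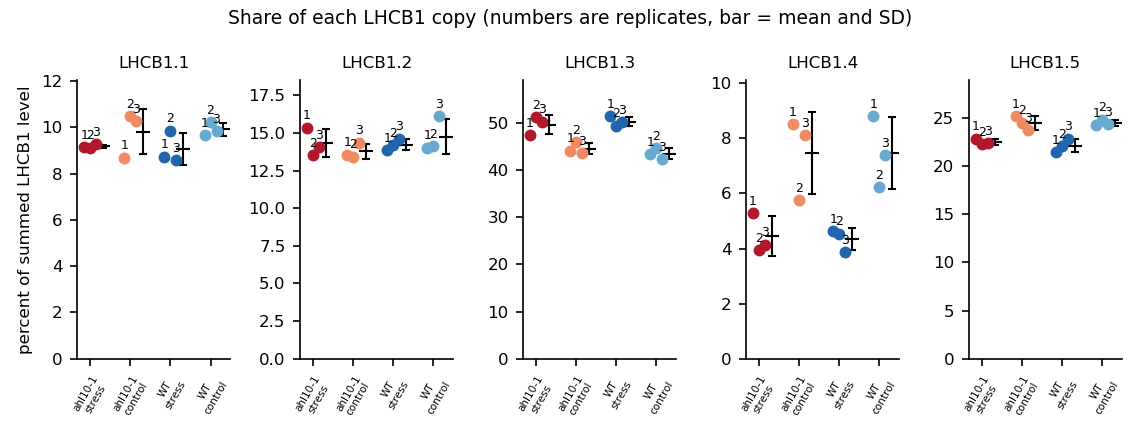
Percent of the summed LHCB1 level (TMM-scaled RPKM) held by each of the 5 LHCB1 copies (panels), by library and group. Numbers are replicates and the black bar is the mean ± SD (n = 3). LHCB1.4 holds a smaller and LHCB1.3 a larger share in the stress groups of both genotypes.

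Photosystem I genes had small and even fold changes. PSAL (AT4G12800), the most abundant of them, whose protein takes part in the docking of the major antenna, had 1934, 2093 and 2214 in WT stress, against 2380.5, 2321 and 2063 in WT control (-0.12 ± 0.22; edgeR adjusted p = 0.742). PSAO (AT1G08380), a small membrane subunit of the same side of the complex, had 1550.4, 1654 and 1513 in WT stress, against 2124, 1943 and 1739 in WT control (-0.30 ± 0.15; edgeR adjusted p = 0.173). PSAF (AT1G31330), which helps plastocyanin dock, had 1362, 1449 and 1403 in WT stress, against 2110.2, 1947 and 1569 in WT control. PSAF had the most negative fold change of the block, -0.42 ± 0.19 (edgeR adjusted p = 0.126), and its groups did not overlap. The 12 log2 fold changes lay between -0.42 and -0.12, and the smallest edgeR adjusted p, 0.0681, was that of PSAE2, a copy of the stromal subunit PsaE at the ferredoxin side. PSAG and PSAK, which hold the antenna belt, had -0.22 ± 0.17 and -0.25 ± 0.19, and PSAN, on the lumen side, had -0.28 ± 0.18 (log2 fold change, SE).

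Photosystem II genes ranged more widely, from -0.47 ± 0.20 for PSBQ1 to 0.06 ± 0.21 for PSBS. PSBR (AT1G79040), the most abundant, encodes a small protein of the oxygen-evolving complex and had 3199, 3404 and 3289 in WT stress, against 4184, 3906 and 3408 in WT control (-0.22 ± 0.17; edgeR adjusted p = 0.382). PSBO1 (AT5G66570), the main form of the manganese-stabilizing protein, had 2113, 2298 and 2381 in WT stress, against 2709, 2592 and 2378 in WT control (-0.18 ± 0.17; edgeR adjusted p = 0.475). PSBP1 (AT1G06680), the form of the extrinsic PsbP protein that supports oxygen evolution, had 1854, 2012 and 1986 in WT stress, against 2398, 2339.7 and 2072 in WT control (-0.22 ± 0.18; edgeR adjusted p = 0.405). PSBS, the sensor of lumen acidity in non-photochemical quenching, had 724, 752 and 732 in WT stress, against 699.8, 835 and 587 in WT control. The PSBS groups overlapped. The small membrane proteins PSBW, PSBX and PSBY had log2 fold changes of -0.21 ± 0.16, -0.19 ± 0.16 and -0.34 ± 0.19 (SE). PSBQ1 is described with its partner PSBQ2 below.

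In ahl10-1, low water potential lowered 2 of the 39 members, LHCA1 and LHCB1.4 (edgeR's quasi-likelihood test, adjusted p under 0.05). These 5.13% compare with 27.8% of all tested genes that changed and 13.5% that fell, and no member rose, where 14.2% of all tested genes did. LHCA1 had 1860.5, 1678 and 1962 in ahl10-1 stress, against 2456, 2461 and 3429 in ahl10-1 control, without overlap (-0.60 ± 0.15, SE; edgeR adjusted p = 0.00996). LHCB1.4 had 1105, 792 and 1003 in ahl10-1 stress, against 2033, 1194 and 2595 in ahl10-1 control (-1.01 ± 0.28; edgeR adjusted p = 0.0190). Its gap between the groups was narrow, since control replicate 2 lay just above stress replicate 1. No photosystem I gene and no photosystem II gene passed, and 1 of each did at an unadjusted p under 0.05 (PSAF and PSBQ1). Of all tested genes 39.4% had such a p. DESeq2's Wald test called 0 and 1 (16.2% of all genes fell by it), and limma on log2(RPKM + 1) called 0 and 0.

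Fold changes were negative for 37 of 39 members here too, against 50.1% of all tested genes, with LHCB2.2 (0.09 ± 0.16) and PSBQ2 (0.03 ± 0.15) the exceptions. The block medians were -0.30 for the antenna, -0.24 for photosystem I and -0.15 for photosystem II, and -8.43e-04 for all tested genes. The groups were apart for 2 members only (LHCA1 and LHCB1.4), or 5.13%, against 19.1% of all tested genes. LHCB1.5 had 4764, 4468 and 5411 in ahl10-1 stress, against 5996, 5069 and 7569 in ahl10-1 control (-0.35 ± 0.16; edgeR adjusted p = 0.132). LHCB1.1 had 1908, 1831 and 2246 in ahl10-1 stress, against 2072, 2169 and 3279 in ahl10-1 control (-0.33 ± 0.18; edgeR adjusted p = 0.193). LHCB1.3 had 9888, 10260.4 and 12168 in ahl10-1 stress, against 10516, 9497 and 13931 in ahl10-1 control. In all 3 of these genes stress replicate 3 reached into the range of the control libraries.

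The other abundant members varied in ahl10-1 mainly between replicates. LHCB1.2 had 3203, 2712 and 3409 in ahl10-1 stress, against 3235, 2779 and 4588 in ahl10-1 control. Of photosystem I, PSAL had 2039.6, 2268 and 3386 in ahl10-1 stress, against 1941, 2569.9 and 3542 in ahl10-1 control. PSAO had 1704, 1723 and 2140.4 in ahl10-1 stress, against 1770.1, 2130.4 and 2684 in ahl10-1 control. In each of these genes replicate 3 was the highest of both groups, and the groups overlapped. PSAF had 1363, 1489.7 and 1942 in ahl10-1 stress, against 1674, 1996 and 2729.7 in ahl10-1 control (-0.42 ± 0.19; edgeR adjusted p = 0.118). Of photosystem II, PSBR had 3494, 3575 and 4579 in ahl10-1 stress, against 3379.6, 4414 and 5393 in ahl10-1 control. PSBP1 had 1966, 2073 and 2799 in ahl10-1 stress, against 1954, 2478 and 3174 in ahl10-1 control, and these groups overlapped too.

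In this genotype, same-numbered stress and control libraries deviated together from their group means, but weakly. The correlations were 0.112, 0.11 and 0.188. For ahl10-1 control and WT control, values of 0.148 and 0.169 stood beside -0.0997, so pairing by number is not established. When only the 6 ahl10-1 libraries were fitted, with a term for the replicate number, 14 members fell rather than 2, or 35.9%, against 16% of all genes tested in that fit. The 14 were LHCA1, LHCA3, LHCA4, LHCB1.4, LHCB1.5, LHCB5 and LHCB6 in the antenna, PSAD2, PSAF, PSAH1, PSAK and PSAN in photosystem I, and PSBQ1 and PSBY in photosystem II. With the same block in the fit of all 12 libraries the count was 2, where 14.2% of all genes fell. In the ahl10-1 libraries alone without the block it was 1 (LHCB1.4), where 11.2% fell. Leaving 1 library out of the fit of all 12 gave 10 members without ahl10-1 control replicate 1, where 14.3% of all genes fell, and 4 without ahl10-1 stress replicate 3 (11.96%). It gave 1 (LHCA1) without ahl10-1 control replicate 3 (9.85%) or without ahl10-1 stress replicate 2 (9.71%). The block medians, in the order antenna, photosystem I and photosystem II, were -0.09, -0.06 and 0.01 without ahl10-1 control replicate 3. They were -0.37, -0.40 and -0.29 without ahl10-1 control replicate 1, -0.38, -0.40 and -0.31 without ahl10-1 stress replicate 3, and -0.24, -0.18 and -0.05 without ahl10-1 stress replicate 1.

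The WT count was sensitive as well. Fitted on the WT libraries alone, 14 members fell, or 35.9%, against 12.6% of genes: 10 antenna genes, PSAF and PSAH1 of photosystem I, and PSBQ1 and PSBY of photosystem II. With the replicate block 3 fell, where 12.7% of all genes did. Leaving out 1 library gave 2 to 8 calls: 2 without WT control replicate 1 or any 1 WT stress library, 3 without WT control replicate 2 or any 1 ahl10-1 stress library, and 8 without ahl10-1 control replicate 1. Of all genes 13.6% fell in that last fit, and 8.09% to 13.6% over the 12 fits that each leave out 1 library. Without WT control replicate 1 the photosystem II median was -0.13. LHCA1 and LHCB1.4 were called in WT in all 21 alternatives tried. LHCB1.5 lost its call in 4 of them, and LHCB1.1 and LHCB2.1 each in 10.

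For WT stress against WT control, the authors' deposited table, which used the 6 WT libraries, lists 20 of 39 members as lower at an adjusted p under 0.05 and none as higher: 10 antenna, 7 photosystem I and 3 photosystem II genes. That is 51.3%, against 14.2% of the genes with an adjusted p in the table. By block the shares were 58.8%, 58.3% and 30%. The antenna and photosystem I thus had like shares there, while all 5 edgeR calls above were antenna genes, so that contrast depends on the fit. LHCA1 has a log2 fold change of -0.72 ± 0.10 (SE) and LHCB1.4 of -1.14 ± 0.17 in the authors' deposited table. In the authors' deposited tables for the genotype comparisons, 0 of 39 members are listed as changed, either in control (0.0697% of the genes with an adjusted p) or under stress (0.358%).

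Between genotypes, no member passed the test. In control, 0 of 39 differed between ahl10-1 and WT (edgeR's quasi-likelihood test), where 0.0177% of all tested genes did, and 0 had an unadjusted p under 0.05, against 5.34% of all genes. Under stress the count was again 0 of 39, beside 0.0265% of all tested genes, with 0 at an unadjusted p under 0.05, against 3.75%. DESeq2 and limma called none in either. Under stress all 39 fitted values were higher in ahl10-1, by 0.08 to 0.31 on the log2 scale. Of all tested genes 48.2% had a value below 0. All 3 ahl10-1 stress libraries were above all 3 WT stress libraries for 11 members, or 28.2%, against 5.85% of all tested genes. These were 7 antenna, 2 photosystem I and 2 photosystem II genes. The shared sign was not particular to the members. Under stress all values were also above 0 for the 10 further LHC-type, 14 electron transport and ATP synthase and 16 Calvin cycle genes described below. So were 26 of 27 regulators and assembly factors. In control the counts in these lists were 9 of 10, 14 of 14, 16 of 16 and 24 of 27.

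The block medians for ahl10-1 stress over WT stress were 0.19 for the antenna, 0.22 for photosystem I and 0.22 for photosystem II. Without ahl10-1 stress replicate 3 they were 0.07, 0.04 and 0.04. For ahl10-1 control over WT control the medians were 0.08, 0.20 and 0.18, with 33 of 39 values above 0, where 51.7% of all tested genes were below 0. Without ahl10-1 control replicate 3 they were -0.10, 0.02 and 0.02. The largest single values under stress were 0.31 ± 0.18 for PSBO2 and 0.30 ± 0.22 for PSAL (SE), and LHCB2.1, with 1307, 1440.3 and 1563 in ahl10-1 stress, against 1146, 1274 and 1109 in WT stress, had the smallest unadjusted p (0.0599; edgeR adjusted p = 0.999).

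The responses of the genotypes to stress were compared directly by the interaction term. It was past the threshold for 0 of 39 members in edgeR's quasi-likelihood test, as for 0% of all tested genes, and 0 members had an unadjusted p under 0.05, against 1.42%. The term, ahl10-1 response minus WT response, was 0.31 ± 0.20 for LHCB2.1, 0.30 ± 0.22 for LHCB2.2, 0.21 ± 0.39 for LHCB1.4 and 0.13 ± 0.21 for LHCA1 (log2, SE). Its block medians were 0.13 for the antenna, 0.01 for photosystem I and 0.02 for photosystem II. DESeq2 and limma also called 0 members. No response of a member was thus shown to differ between the genotypes, although more antenna genes passed the test in WT.

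Several subunits are encoded by more than 1 gene, and a difference between libraries that scales both copies alike leaves their ratio as it is. In 8 pairs, the log2 ratio under stress was compared with control by an exact permutation test within genotypes (two-sided, 400 arrangements, smallest possible p 0.005), with p adjusted over the 8. The ratio shifted in 5 of 8. How often ratios of other gene pairs would shift was not tested, so the count has no background beside it. Of single genes, 24.2% of all tested changed under stress in WT and 27.8% in ahl10-1 (edgeR). Those shares come from another measure and test, and are no background for ratios. When stress and control libraries were instead paired by replicate number (sign flips, 64 arrangements), each of the 5 had the smallest p that test can give, 0.0313 (exact permutation, adjusted 0.05), and 0 of 8 passed.

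The largest shift was in the pair for PsbQ, an extrinsic protein of the oxygen-evolving complex. PSBQ1 (AT4G21280, chr4:11334352-11335815, plus strand) had 676, 764 and 1031 in ahl10-1 stress and 829, 1277 and 1483 in ahl10-1 control, against 685, 757 and 701 in WT stress and 1022, 1105 and 849 in WT control. PSBQ2 (AT4G05180, chr4:2671523-2673243, minus strand) had 1218, 1226 and 1523 in ahl10-1 stress and 1062, 1195 and 1625 in ahl10-1 control, against 1133, 1135 and 1132 in WT stress and 1270.2, 1135 and 1063 in WT control. Levels of PSBQ2 thus overlapped between treatments, while PSBQ1 lay lower under stress in WT and overlapped in ahl10-1. The ratio of PSBQ1 to PSBQ2 was 0.555, 0.624 and 0.677 in ahl10-1 stress and 0.780, 1.07 and 0.913 in ahl10-1 control, against 0.605, 0.667 and 0.619 in WT stress and 0.805, 0.974 and 0.799 in WT control. All 6 stress libraries were below all 6 controls, and the mean log2 shift was -0.50 (exact permutation p = 0.005, adjusted 0.01).

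For LHCB2, the ratio of LHCB2.1 to LHCB2.2 was 1.05, 1.14 and 1.04 in ahl10-1 stress and 1.205, 1.32 and 1.19 in ahl10-1 control, against 1.07, 1.098 and 1.01 in WT stress and 1.19, 1.296 and 1.198 in WT control. Again every stress library was below every control library, with a log2 shift of -0.21 (exact permutation p = 0.005, adjusted 0.01). LHCB2.1 had 1307, 1440.3 and 1563 in ahl10-1 stress, against 1388, 1366 and 1902 in ahl10-1 control, and LHCB2.2 had 1247, 1269 and 1504 in ahl10-1 stress, against 1152, 1036 and 1593 in ahl10-1 control. Up to 3.06% of the reads of these copies were multi-mapped, and the shift was also past the threshold without those reads.

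The other shifts were smaller. PsaD, the main ferredoxin-docking subunit, had a ratio of PSAD1 to PSAD2 of 2.44 ± 0.0491 in ahl10-1 stress and 2.24 ± 0.118 in ahl10-1 control, against 2.35 ± 0.0364 in WT stress and 2.18 ± 0.0253 in WT control (SD, n = 3 each), a log2 shift of 0.12 (exact permutation p = 0.005, adjusted 0.01). PsaH is needed for the docking of LHCII at photosystem I. Its ratio of PSAH1 to PSAH2 was 0.746 ± 0.00374 in ahl10-1 stress and 0.794 ± 0.0215 in ahl10-1 control, against 0.718 ± 0.0267 in WT stress and 0.787 ± 0.00692 in WT control, a log2 shift of -0.11 (exact permutation p = 0.005, adjusted 0.01). In both pairs the 3 stress libraries of each genotype were on 1 side of its 3 control libraries. PSAD2 overlaps another annotated gene on its own strand, and PSAH1 and PSAH2 each overlap 1 on the opposite strand.

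For the manganese-stabilizing protein, the ratio of PSBO1 to PSBO2 was 2.89 ± 0.104 in ahl10-1 stress and 3.17 ± 0.280 in ahl10-1 control, against 3.07 ± 0.164 in WT stress and 3.52 ± 0.171 in WT control, a log2 shift of -0.16 (exact permutation p = 0.015, adjusted 0.024), and 5 of 6 stress libraries were below all controls of their genotype. The ratios of LHCB4.1 to LHCB4.2 (log2 shift 0.07), PSAE1 to PSAE2 (0.08) and LHCB4.3 to LHCB4.1 (-0.18) did not pass (exact permutation, adjusted p = 0.12, 0.389 and 0.55). These tests ask whether copies changed unequally, and do not say which copy moved.

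Behind the smaller shifts, PSAD1 had 1225, 1348 and 1683 in ahl10-1 stress and 1239, 1549 and 1904 in ahl10-1 control, against 1205, 1315 and 1239 in WT stress and 1463, 1441 and 1227 in WT control. PSAD2 had 499, 545 and 706 in ahl10-1 stress and 543, 667 and 906 in ahl10-1 control, against 503, 561 and 533 in WT stress and 679.6, 656 and 559 in WT control. PSAD1 was thus the more abundant copy in all 12 libraries. PSAH1 had 758, 846 and 1124 in ahl10-1 stress and 825, 1134 and 1444 in ahl10-1 control, against 734, 765 and 787 in WT stress and 1010.5, 1004 and 871 in WT control. PSAH2 had 1012, 1134 and 1515 in ahl10-1 stress and 1008, 1452 and 1847 in ahl10-1 control, against 1047, 1087 and 1051 in WT stress and 1271, 1282 and 1113 in WT control. PSAH2 was the more abundant copy throughout. PSBO1 had 2292, 2490.5 and 3126 in ahl10-1 stress and 2305, 2769.7 and 3574 in ahl10-1 control. PSBO2 had 761, 881 and 1101 in ahl10-1 stress and 664, 949 and 1147 in ahl10-1 control, against 696, 786 and 733 in WT stress and 744, 779 and 659.7 in WT control, and its groups overlapped in both genotypes.

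**Figure D5:**
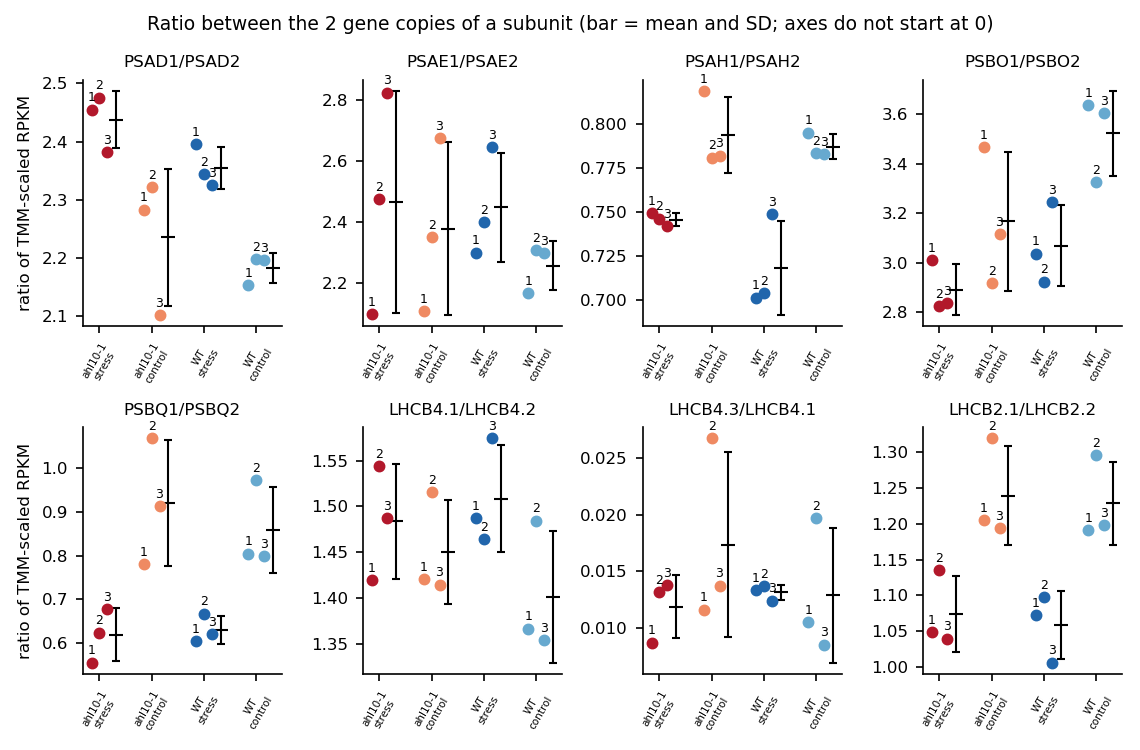
Ratio of TMM-scaled RPKM (vertical axis) between the gene copies of 8 pairs (panels) in each library, by group; numbers are replicates, the black bar is the mean ± SD (n = 3), and axes do not start at 0. PSBQ1/PSBQ2, LHCB2.1/LHCB2.2 and PSAH1/PSAH2 are lower and PSAD1/PSAD2 higher in the stress libraries of each genotype.

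Other genes of the photosynthetic apparatus were counted for comparison. Under stress, 20% of 10 further LHC-type genes changed in each genotype. Of 14 genes of electron transport and ATP synthase 21.4% changed in ahl10-1 and 7.14% in WT. These shares were below those of all tested genes, 27.8% in ahl10-1 and 24.2% in WT. Of 10 further LHC-type genes, ELIP1, an early light-induced protein that binds pigment under stress, rose in both genotypes, with 40.7, 34 and 28.9 in ahl10-1 stress and 9.84, 13.5 and 9.42 in ahl10-1 control, against 34.5, 29.2 and 36.9 in WT stress and 9.92, 11.3 and 14.1 in WT control. Its log2 fold change was 1.66 ± 0.18 in ahl10-1 and 1.51 ± 0.18 in WT (SE; edgeR adjusted p = 5.74e-05 and 1.29e-04), opposite in sign to the 5 antenna genes called in WT. OHP2, a one-helix protein of photosystem II assembly, fell in both (-0.44 ± 0.14 in ahl10-1 and -0.42 ± 0.14 in WT; edgeR adjusted p = 0.0307 and 0.0438). Of 14 genes of electron transport and ATP synthase, PGRL1B, of cyclic electron flow, rose in both (0.38 ± 0.08 and 0.40 ± 0.08), and PETM and FD2 fell in ahl10-1 (-0.70 ± 0.21 and -0.68 ± 0.21). In WT, PETM and FD2 had -0.61 ± 0.21 and -0.50 ± 0.21 (edgeR adjusted p = 0.0509 and 0.106). Their interaction terms, -0.08 ± 0.29 and -0.18 ± 0.29, showed no difference between the genotypes. Of 16 Calvin cycle genes none passed in either genotype (edgeR). An unadjusted p under 0.05 was found for 3 of them in ahl10-1 (18.8%, against 39.4% of all tested genes). In WT it was found for 1 (6.25%, against 36.7%). The median log2 fold changes of the Calvin cycle genes were -0.32 in ahl10-1 and -0.20 in WT. Those of the electron transport and ATP synthase genes were -0.34 and -0.29, beside -0.30 and -0.39 for the antenna.

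Of 27 regulators and assembly factors, CGA1, HYH, PBCP and PIF1 fell and GLK1 rose in ahl10-1, and CGA1, HYH, PIF5 and PBCP fell in WT. The 4 that fell were 14.8% of the list in each genotype. That is near the share of all tested genes that fell, 13.5% in ahl10-1 and 12.5% in WT. CGA1, a GATA factor that promotes chloroplast development, fell to 3.19, 3.33 and 4.36 in ahl10-1 stress, against 5.66, 7.41 and 7.79 in ahl10-1 control, and to 3.91, 2.51 and 3.301 in WT stress, against 6.51, 7.63 and 4.54 in WT control. HYH, a bZIP relative of HY5 in light signalling, fell as well (-0.80 ± 0.22 in ahl10-1 and -0.92 ± 0.22 in WT; edgeR adjusted p = 0.0183 and 0.0111). PIF5, a phytochrome-interacting factor, fell in WT (-0.59 ± 0.19; edgeR adjusted p = 0.0408). GLK1, an activator of antenna genes, was the exception in direction: it rose in ahl10-1, with 86.2, 105 and 129 in stress, against 50.9, 70.4 and 74.7 in control (0.71 ± 0.17; edgeR adjusted p = 0.0108), and its log2 fold change in WT was 0.48 ± 0.17 (edgeR adjusted p = 0.0649). GLK1, PBCP, PIF1, PETM, FD2 and the single tissue markers named above fall outside the naming rule and were picked with their values in view.

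Of the 39 members, 15 overlap another annotated gene, among them LHCB1.3 and LHCB1.5 of the LHCB1 family and, of the copies whose ratio shifted, PSAD2, PSAH1 and PSAH2. The libraries were strand-specific, but no source used here says if the counting heeded strand, and reads of such neighbours could be included. LHCA1, LHCB1.4, LHCB1.1, LHCB2.1 and the PSBQ and PSBO genes overlap no other gene, and of the called genes LHCB1.5 does.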

How the data were processed

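For each of the 12 libraries the authors deposited a table with estimated counts of reads per gene, RPKM, gene length and the fraction of multi-mapped reads, per the file headers. Between 3.98% and 4.56% of a library's genes had a deposited count that was not whole, and 1.25% to 2.33% of reads were multi-mapped. All counts were rounded. The submitters' processing notes name TAIR10, CASAVA, bcl2fastq 1.8.4, Bowtie2 and DESeq2, with no role. The counter, the annotation and any use of strand are not given in the sources used here. For 3 comparisons the authors deposited tables of log2 fold changes, standard errors and adjusted p-values.

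Samples were grouped by their titles. The filterByExpr function of edgeR, at a minimum count of 10 and a minimum total of 15, kept 22604 genes. Counts were fitted with edgeR 4.0.16 (R 4.3.3) by its quasi-likelihood method with robust estimation and TMM scaling, as 4 group means over all 12 libraries (8 residual degrees of freedom, biological coefficient of variation 0.144). The p-values were adjusted over all tested genes by the Benjamini-Hochberg method, and calls were made at an adjusted p under 0.05. The SE was derived from the fold change and the F statistic. Alternatives used DESeq2 1.42.0, limma 3.58.1 on log2(RPKM + 1) and log2(RPKM + 0.1), other scalings and filters, the compared groups alone, removal of multi-mapped reads, a replicate block and leaving out each library. Libraries with the same replicate number, taken from the titles, were checked for pairing: for stress in ahl10-1 the correlations of their deviations were 0.112, 0.110 and 0.188, all over 0.1, and in no other comparison were all 3. What a number marks is not stated.

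On data simulated for stress in WT (22457 genes tested), edgeR called 34 of 50 genes changed 1.5-fold, 44 of 50 changed 2-fold and 4 unchanged genes. The simulation changed few genes and drew each gene independently. In the real data 24.2% of genes changed and the members varied together, so these rates do not give the rate for members. At these depths counting error is small beside the spread between libraries. Figures were drawn with matplotlib 3.10.9.

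The members and lists were chosen with earlier results of these data known. Any member could be named. Values in every library were given, per block, for up to 4 called members with the largest change for stress in WT, members called against the block's direction or in a genotype comparison, the 3 most abundant, and members of copy pairs that passed. For other lists the 3 called genes with the smallest adjusted p in WT were named.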

Additional observations from a re-analysis of the deposited data

How the results depend on the processing

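Every block median of the 4 stress and genotype comparisons moved by less than the spread between replicates under the alternatives, except 2 for ahl10-1 stress over WT stress. Without ahl10-1 stress replicate 3 these were 0.0366 for photosystem I (0.0366 to 0.30 when each library was left out) and 0.0374 for photosystem II (0.0374 to 0.32). Moves of that size could still change a sign. Without ahl10-1 control replicate 3, the photosystem II median for stress in ahl10-1 was 0.01, against -0.15 with all libraries. In that fit the antenna median for ahl10-1 control over WT control was -0.10, against 0.08 with all libraries. The medians have no threshold, and no result that has one reversed past it. For stress in WT, where 5 members were called, DESeq2's Wald test called 9 and the compared groups alone 14, and leaving out 1 library gave 2 to 8. For stress in ahl10-1, where 2 were called, DESeq2's Wald test called 5 and the compared groups alone 1, and leaving out 1 library gave 1 to 10. The genotype and interaction counts were 0 under all alternatives run. Why the fits of fewer libraries called other numbers of members was not tested.

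With the replicate number as a block in the fit of all 12 libraries, 3 members were called for stress in WT and 2 for stress in ahl10-1, and in the ahl10-1 libraries alone 14 were called. For stress in WT the pairing check gave correlations of -0.00388, 0.0164 and -0.04. Values this near 0 cannot tell whether same-numbered WT libraries came from a shared experiment. The 5 shifts between gene copies passed when any 1 library was left out and without multi-mapped reads. Paired by replicate number they gave 0 calls, each at 0.0313, the smallest p that 64 arrangements can give, or 0.05 after adjustment. The scaling alternatives (median-ratio and upper-quartile) left all counts of calls as they were. Depth does not limit these members, the lowest of which had 1295 reads.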
